A study of Mus musculus with 6 samples.

Results

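Transcript levels of 6 temperature-responsive genes were followed across the day in mouse kidney: the cold-inducible RNA-binding protein genes Cirbp and Rbm3, and the 4 CDC-like kinase genes Clk1, Clk2, Clk3 and Clk4. The genes were chosen by name, with earlier results of these data known. Every transcript row that the deposited table gives under these symbols was used: 65 of 128603 rows, for 6 of 51803 gene symbols. Of the 65 rows, 36 had a mean of at least 1 FPKM (a level scaled to transcript length and library size) over the libraries and were tested, 25 had lower means, between 0.0018 and 0.928 FPKM, and 4 were listed at 0 in every library. In the whole table that mean was reached by 21596 rows.

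The study collected whole kidneys from male BALB/c mice at postnatal week 8 under a light/dark cycle. Sampling times are given as zeitgeber time (ZT, hours after lights on) and run in steps of 4 h from ZT0 through ZT20. Each time is represented by 1 library of total RNA, and all 6 libraries share the strain, sex, age and light regime. There was no mutant, no treatment and no replicate at any time, and the labels do not say whether a library pools animals or give body temperature.

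CIRBP and RBM3 are small RNA-binding proteins with a single RNA recognition motif, whose messages accumulate when cells or tissues are mildly cooled and decline on warming. The CLK kinases phosphorylate serine/arginine-rich (SR) splicing factors, and their activity is known to be higher at the lower end of the body temperature range. CLK genes also produce transcripts that cannot encode an active kinase: transcripts that skip the fourth exon lose the reading frame of the kinase domain, and intron-retaining Clk1 and Clk4 transcripts are known to be held in the nucleus. Body temperature in mice is known to follow a daily rhythm that is higher in the dark phase.

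The sequences on which the isoform comparisons rest are given on GRCm38, since on that build the GENCODE M21 transcript of every one of the 65 rows lies inside the locus that the table gives for it. Exon 4, numbered in transcripts Clk1-201, Clk2-201, Clk3-201 and Clk4-201, is the coding exon whose skipping distinguishes the kinases' isoforms. It lies at chr1:58420121-58420211 on the minus strand in Clk1, chr3:89169618-89169702 on the plus strand in Clk2, chr9:57758627-57758723 on the minus strand in Clk3 and chr11:51273078-51273168 on the plus strand in Clk4. Its lengths of 91, 85, 97 and 91 bases all leave a remainder of 1 when divided by 3.

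The 4 exons, written in full in lower case because these are the bases that the skipping isoforms lack, were as follows.
Clk1 exon 4: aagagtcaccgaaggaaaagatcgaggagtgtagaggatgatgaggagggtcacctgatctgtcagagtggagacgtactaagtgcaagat
Clk2 exon 4: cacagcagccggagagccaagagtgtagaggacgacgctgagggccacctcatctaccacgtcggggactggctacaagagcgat
Clk3 exon 4: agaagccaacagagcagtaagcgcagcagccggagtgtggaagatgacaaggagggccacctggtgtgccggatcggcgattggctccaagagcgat
Clk4 exon 4: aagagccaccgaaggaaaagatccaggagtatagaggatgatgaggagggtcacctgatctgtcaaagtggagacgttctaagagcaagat
The exons of Clk1 and Clk4 have the same length and were identical at 85 of 91 positions (93.4%).

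Retained-intron transcripts of Clk1 read through the exon 3 and exon 4 splice donors (chr1:58421063-58421092 and chr1:58420101-58420130, minus strand). In the lines that follow, capitals mark the intron bases that the coding transcript Clk1-201 removes and the transcripts Clk1-204 and Clk1-212 keep.
Clk1 exon 3 to intron 3: ttcacacgggGTATGAGTGCCTTTTAAACG
Clk1 exon 4 to intron 4: agtgcaagatGTATAGAATATTTTTCAACA
The introns kept are 871 bases (intron 3) and 387 bases (intron 4) long.

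The main coding isoforms of Rbm3 differ by 3 coding bases at the start of the exon that holds the stop codon (chrX:8143275-8143332, minus strand, GRCm38). Capitals mark the bases present in Rbm3-201, Rbm3-203 and Rbm3-204 and absent from Rbm3-202 and Rbm3-206, and only coding bases are shown.
Rbm3-203 last coding exon: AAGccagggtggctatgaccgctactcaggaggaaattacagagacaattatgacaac
Rbm3-202 last coding exon: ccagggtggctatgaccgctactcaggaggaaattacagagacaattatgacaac

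Promoter windows from RefSeq (GRCm38.p6) were at hand for Cirbp (2 windows), Clk2, Clk3 and Clk4 (1 each). They were searched on both strands, with no overlap between motifs, for the mild-cold response element TCCCCGCC, known from the Cirbp 5′ flank, the E-box CACGTG, the cyclic AMP response element TGACGTCA, the heat shock element GAANNTTC and the D-box TTATGNAA. The upstream parts that held a match are shown because these genes are the ones whose daily profiles are compared, with the match in capitals: chr10:80167589-80167777 for Cirbp, chr3:89164545-89164794 for Clk2 and chr11:51262864-51263113 for Clk4, all on the plus strand.
Cirbp promoter flank: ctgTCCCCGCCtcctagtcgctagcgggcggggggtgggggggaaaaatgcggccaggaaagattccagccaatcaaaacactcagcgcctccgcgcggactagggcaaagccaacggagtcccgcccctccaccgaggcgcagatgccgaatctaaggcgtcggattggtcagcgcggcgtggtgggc
Clk2 promoter flank: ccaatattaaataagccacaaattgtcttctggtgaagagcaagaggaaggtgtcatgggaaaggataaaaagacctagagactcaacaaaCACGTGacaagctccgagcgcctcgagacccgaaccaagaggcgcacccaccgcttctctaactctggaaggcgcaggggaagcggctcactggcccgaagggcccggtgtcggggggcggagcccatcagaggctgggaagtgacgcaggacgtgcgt
Clk4 promoter flank: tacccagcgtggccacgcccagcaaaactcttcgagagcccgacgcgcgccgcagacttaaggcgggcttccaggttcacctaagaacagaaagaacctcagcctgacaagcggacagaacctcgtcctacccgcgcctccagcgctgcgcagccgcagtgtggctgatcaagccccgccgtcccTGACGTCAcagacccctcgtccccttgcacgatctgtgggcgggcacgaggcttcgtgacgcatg
The element TCCCCGCC stood in 1 of the 2 Cirbp windows, at positions -247 to -240 from that window's start site, and 5.38% of 32851 promoter windows held it. Since the element is known from the Cirbp flank, its match there is no independent result. The E-box of Clk2 (-159 to -154) was found in 7.15% of windows and the cyclic AMP response element of Clk4 (-65 to -58) in 1.79%. The heat shock element (7.86% of windows) and the D-box (3.38%) had no match in these windows. A match describes these letters only.

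Summed over all transcript rows, the cold-inducible genes varied most across the day and the kinases least. Cirbp was lowest at ZT16 and ZT20, in the dark phase, Rbm3 was highest at ZT12, and Clk1, Clk2 and Clk4 stayed within 1.31 times of their own lowest library. No gene of the 6 passed a 24 h cosine fit at an adjusted p under 0.05, where 36 of 12709 genes in the table did (0.283%; limma moderated F test, Benjamini-Hochberg adjustment over all genes). At an unadjusted p under 0.05, which 19.1% of all genes reached, 3 of the 6 genes stood: Cirbp, Rbm3 and Clk3.

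Cirbp, at chr10:80165985-80172786 (plus strand; ENSMUSG00000045193), encodes the cold-inducible RNA-binding protein. Its summed level was 37.5, 26.7, 31.3, 20.6, 9.0 and 11.1 FPKM, in the order of time from ZT0 to ZT20. The 3 libraries of the first part of the light phase were the 3 highest, and the 2 night libraries ZT16 and ZT20 were the 2 lowest, with a highest level 4.17 times the lowest. The fitted amplitude, from the mean to the peak on the log2(FPKM + 1) scale, was 0.88 ± 0.20 (SE), larger than in 99.2% of all genes tested, with a peak at ZT4.74 ± 0.88 h (limma unadjusted p = 0.0126, adjusted p = 0.175). An exact permutation test over the 60 distinct circular orders of the libraries, which can give no p below 0.0167, gave p = 0.167. Without the ZT16 library the amplitude was 0.74, with limma unadjusted p = 0.0862 (adjusted p = 0.432). Summed blood markers were highest in the ZT16 and ZT20 libraries, at 314 and 297 FPKM against 124 to 207 FPKM in the others, and the part of blood in this profile was not tested.

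Rbm3, at chrX:8138975-8145880 (minus strand; ENSMUSG00000031167), encodes RNA-binding motif protein 3, the close relative of CIRBP. Its summed level was 55.1, 60.3, 68.4, 81.6, 57.0 and 42.1 FPKM in the same order of times. The level was higher at each time than at the one before up to ZT12 and lower after it, so that ZT12 was the highest library and ZT20 the lowest, 1.94 times apart. The amplitude was 0.36 ± 0.08 (SE) with a peak at ZT9.49 ± 0.86 h (limma unadjusted p = 0.0114, adjusted p = 0.173; exact permutation p = 0.0667). Without the ZT20 library it was 0.27, with limma unadjusted p = 0.0629 (adjusted p = 0.557).

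Since the fitted peaks of Cirbp and Rbm3 lay at different times, their ratio was compared directly. The ratio of summed Cirbp to summed Rbm3 was 0.681, 0.442, 0.457, 0.252, 0.158 and 0.263 from ZT0 to ZT20. Cirbp was thus always the lower of the pair, and the ratio was highest at ZT0 and lowest at ZT16. The fitted amplitude of the log2 ratio was 0.84, with a peak at ZT3.12 (exact permutation p = 0.1), so this difference between the genes did not pass the test.

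**Figure D1:**
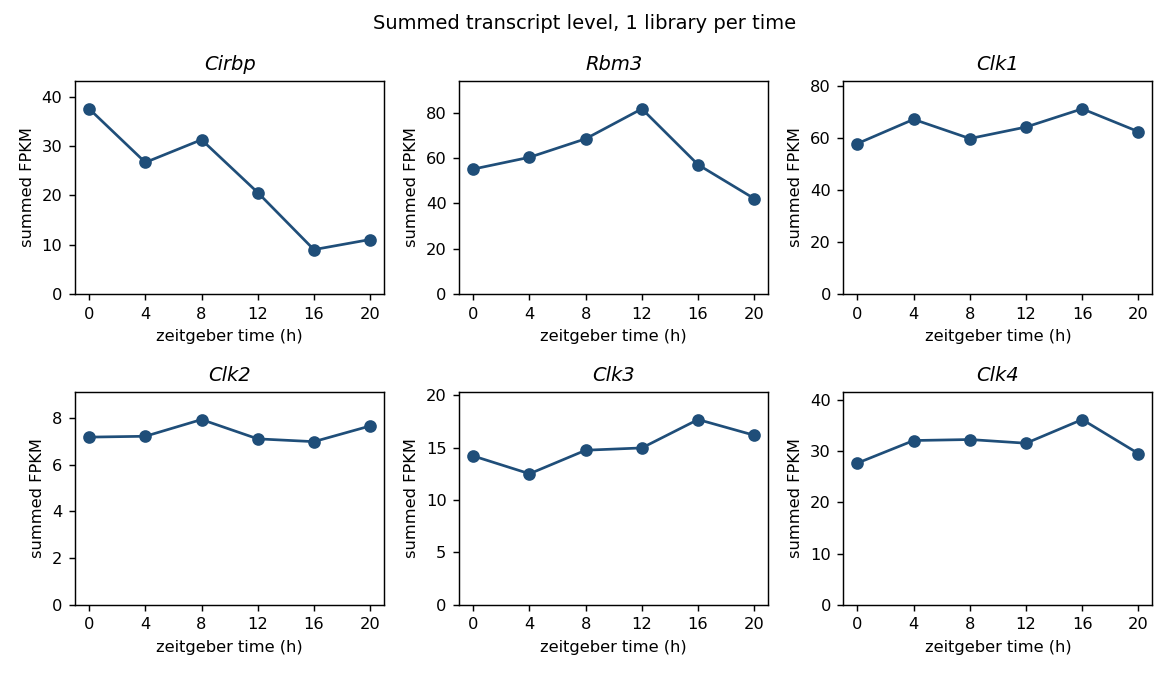
Summed FPKM of all transcript rows of each gene (y axis, starting at 0) against zeitgeber time in hours (x axis); each point is 1 library, so there are no error bars. Cirbp spans 9.0 to 37.5 FPKM and Rbm3 42.1 to 81.6 FPKM, while Clk2 stays between 6.98 and 7.93 FPKM.

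The kinase sums lay on different levels and varied little. Clk1, at chr1:58410189-58424066 (minus strand; ENSMUSG00000026034), stood at 57.9, 67.2, 59.8, 64.3, 71.3 and 62.5 FPKM from ZT0 to ZT20. Clk4, at chr11:51261730-51281766 (plus strand; ENSMUSG00000020385), the nearest relative of Clk1 among these genes by exon 4, stood at 27.7, 32.1, 32.3, 31.5, 36.2 and 29.5 FPKM. Both had their lowest library at ZT0 and their highest at ZT16, and neither passed (limma unadjusted p = 0.578 for Clk1 and 0.274 for Clk4, adjusted p = 0.739 and 0.510). Their ratio, Clk1 over Clk4, was between 1.85 and 2.12 in every library (exact permutation p = 0.4).

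Clk3, at chr9:57750624-57765860 (minus strand; ENSMUSG00000032316), stood at 14.2, 12.5, 14.8, 15.0, 17.7 and 16.2 FPKM from ZT0 to ZT20. ZT16 and ZT20 were its highest libraries and ZT4 its lowest. Its amplitude was 0.19 ± 0.05 (SE), with a peak at ZT16.3 (limma unadjusted p = 0.0276, adjusted p = 0.218; exact permutation p = 0.05). The unadjusted call was lost when ZT0, ZT4, ZT16 or ZT20 was left out, with limma unadjusted p between 0.0514 and 0.169 (adjusted p between 0.277 and 0.564). It was also lost on coding transcripts alone, where the amplitude was 0.08 (limma unadjusted p = 0.502, adjusted p = 0.684), and with the transcript of highest mean alone, where the amplitude was 0.065 and the fitted peak lay at ZT7.83 (limma unadjusted p = 0.679, adjusted p = 0.815). Edc3, on the opposite strand, overlaps Clk3 exons by 1876 bases and averaged 3.02 FPKM. Rbm3os on Rbm3 and BC049762 on Clk4 do so at mean levels of 0.178 and 0.259 FPKM. On the strand of Clk4 itself, Gm25082 overlaps its exons by 255 bases and averaged 1.85 FPKM, so that the split of reads between them is uncertain. Whether the quantification used strand is not given in the sources used here.

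Clk2, at chr3:89164795-89176921 (plus strand; ENSMUSG00000068917), was the lowest and flattest of the kinases, at 7.17, 7.21, 7.93, 7.10, 6.98 and 7.65 FPKM from ZT0 to ZT20 (amplitude 0.03 ± 0.05 SE; limma unadjusted p = 0.901, adjusted p = 0.946). By mean FPKM, a level per length, the order over the 6 libraries was Clk1 (63.8), Rbm3 (60.7), Clk4 (31.5), Cirbp (22.7), Clk3 (15.1) and Clk2 (7.34). The ranges of Clk1 and Rbm3 overlapped, as did those of Clk4 and Cirbp and those of Cirbp and Clk3. Rbm3 was above Clk4, and Clk3 above Clk2, in all 6 libraries without overlap.

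At the level of single transcripts no row of the table passed at an adjusted p under 0.05 (0 of 21596, 0.0%; the lowest adjusted p of any row was 0.144). At an unadjusted p under 0.05, reached by 3277 rows (15.2%), 8 of the 36 tested rows of these genes stood (22.2%). The median amplitude over the 36 rows was 0.27 on the log2(FPKM + 1) scale, beside 0.17 over all rows tested. A test of the difference between isoforms themselves, the log2 ratio of a transcript to the rest of its gene, gave 0 of 15323 rows at an adjusted p under 0.05 (0.0%) and 1703 at an unadjusted p under 0.05 (11.1%), among them 7 of the 36 rows (19.4%; lowest adjusted p 0.309).

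**Figure D2:**
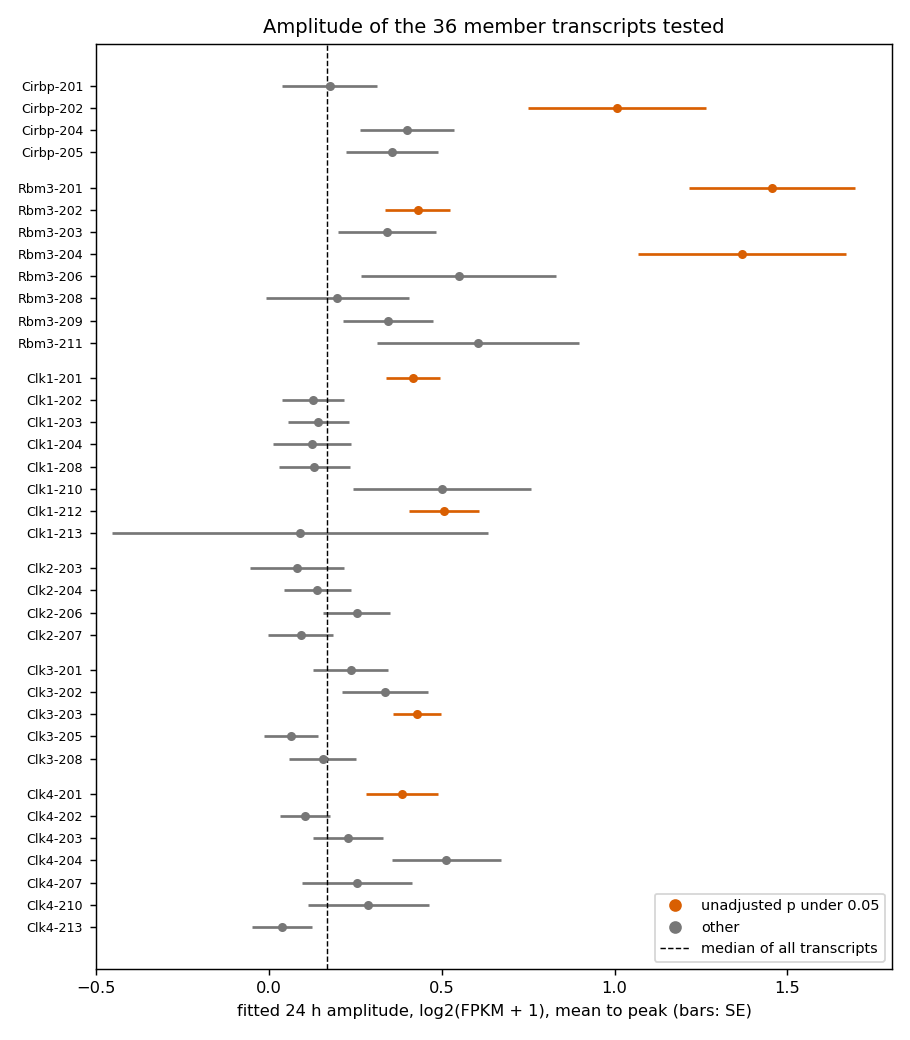
Fitted 24 h amplitude (x axis, log2(FPKM + 1), mean to peak; bars are SE from limma) of each of the 36 tested transcripts (y axis, grouped by gene); orange marks an unadjusted p under 0.05 and the dashed line the median of all transcripts tested (0.17). Rbm3-201, Rbm3-204 and Cirbp-202 have the 3 largest amplitudes, and none of the 36 passed at an adjusted p under 0.05.

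Cirbp was carried by 1 coding transcript. Cirbp-202 (chr10:80167778-80171655) was at 29.4, 19.9, 23.7, 15.5, 5.29 and 7.24 FPKM from ZT0 to ZT20. Its order of times was that of the gene, with ZT0 highest and ZT16 lowest (amplitude 1.01 ± 0.26 SE, peak ZT4.77; limma unadjusted p = 0.0248, adjusted p = 0.279; exact permutation p = 0.167). The unadjusted call was lost without ZT8, ZT16 or ZT20, with limma unadjusted p between 0.0675 and 0.141 (adjusted p between 0.381 and 0.621), and with no filter on low rows (limma unadjusted p = 0.0535, adjusted p = 0.614).

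The other tested rows of Cirbp are not annotated as protein coding. Noncoding stands here and in what follows for every row of another annotated class, including rows annotated for nonsense-mediated decay, which do carry a coding sequence. Cirbp-204, which keeps intron 6 of 217 bases, was at 3.19, 2.44, 1.81, 1.85, 1.01 and 1.4 FPKM. Cirbp-205, also annotated with a retained intron, lay between 0.794 and 2.40 FPKM, and Cirbp-201, annotated for nonsense-mediated decay, between 0.605 and 1.56 FPKM. Cirbp-204 and Cirbp-205 had their lowest library at ZT16, as Cirbp-202 did, and Cirbp-201 at ZT20. The coding share of Cirbp was 80.4, 75.8, 77.3, 77.2, 58.8 and 65.6% from ZT0 to ZT20. The coding share was thus lowest at ZT16 and ZT20, where the sum was lowest too. The noncoding to coding ratio had an amplitude of 0.58 ± 0.20 (SE) and did not pass (limma unadjusted p = 0.0617, adjusted p = 0.459; exact permutation p = 0.3). At night the 3 noncoding rows stood near the pseudocount of 1 FPKM, where the log2 scale understates a difference.

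Rbm3 was spread over 5 tested coding transcripts. Rbm3-202 was at 17.9, 22.6, 23.6, 28.6, 16.5 and 13.7 FPKM from ZT0 to ZT20, highest at ZT12 (amplitude 0.43 ± 0.09 SE, peak ZT8.55; limma unadjusted p = 0.0135, adjusted p = 0.257). Its near copy Rbm3-203, which carries the 3 extra bases, was at 21.3, 20.6, 20.9, 26.6, 13.9 and 13.6 FPKM. It was also highest at ZT12 and lowest at ZT20, and did not pass (limma unadjusted p = 0.134, adjusted p = 0.437). Leaving out ZT20 took Rbm3-202 to limma unadjusted p = 0.0924 (adjusted p = 0.637).

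The minor coding rows moved over a wider range. Rbm3-204 was at 2.94, 7.68, 11.8, 11.9, 8.94 and 0.597 FPKM, high from ZT4 to ZT16 and near 0 at ZT20 (amplitude 1.37 ± 0.30 SE, peak ZT9.58; limma unadjusted p = 0.0135, adjusted p = 0.257; exact permutation p = 0.0667). Without ZT20 its amplitude was 0.90 (limma unadjusted p = 0.0048, adjusted p = 0.525). Rbm3-206 was at 5.64, 1.48, 6.14, 5.98, 7.75 and 3.47 FPKM, with its lowest library at ZT4 between higher neighbours (limma unadjusted p = 0.235, adjusted p = 0.530). The messages with the 3 extra bases (Rbm3-201, Rbm3-203 and Rbm3-204) together made up 50.7, 54.0, 52.4, 55.3, 52.2 and 49.7% of the coding forms that can be told apart there. The share of the 3-base choice stayed within 6 percentage points of an even split in every library (exact permutation p = 0.233). Adjusted over the 6 structure ratios described for Rbm3 and the kinases, this permutation p was 0.35.

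Rbm3-201 ends at a last exon downstream of the one used by Rbm3-202, Rbm3-203, Rbm3-204 and Rbm3-206. It was at 0.00096, 0.0504 and 0.0022 FPKM at ZT0, ZT4 and ZT8 and at 4.29, 3.76 and 2.82 FPKM at ZT12, ZT16 and ZT20. The 3 later libraries were all high and the 3 earlier ones all near 0 (amplitude 1.46 ± 0.24 SE, peak ZT15.6; limma unadjusted p = 0.0036, adjusted p = 0.194; exact permutation p = 0.183). With a pseudocount of 0.1 FPKM in place of 1 the amplitude was 3.28 (limma unadjusted p = 0.0097, adjusted p = 0.254), so its size rests on the pseudocount. The processed transcript Rbm3-211, which shares that distal region, was at 1.62, 2.76, 1.36, 0.00079, 2.09 and 2.43 FPKM, and was near 0 at ZT12, the library in which Rbm3-201 was highest. Summed, the rows with the distal last exon were at 1.62, 2.81, 1.36, 4.29, 5.85 and 5.26 FPKM. Their share of distal plus proximal ends was 3.04, 4.86, 2.03, 5.40, 10.7 and 13.5%, highest at ZT16 and ZT20 (exact permutation p = 0.167, adjusted over the 6 ratios 0.35). This grouping was made after the values were seen.

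Noncoding Rbm3 rows were a minor part of the gene. Rbm3-209, which keeps intron 3 of 625 bases, was at 3.88, 2.57, 3.18, 2.11, 1.51 and 2.36 FPKM, and Rbm3-208, annotated for nonsense-mediated decay, lay between 0.926 and 2.69 FPKM. The noncoding share of Rbm3 was 13.2, 13.0, 8.71, 5.26, 10.8 and 18.6% from ZT0 to ZT20. It was lowest at ZT12, where the coding sum was highest, and highest at ZT20. The noncoding to coding ratio had an amplitude of 0.74 ± 0.19 (SE), with a peak at ZT22.6 (limma unadjusted p = 0.0154, adjusted p = 0.348; exact permutation p = 0.0667). Of all genes tested for this ratio none passed at an adjusted p under 0.05 (0 of 3359, 0.0%) and 375 (11.2%) had an unadjusted p under 0.05, among them Rbm3 and Clk1 of the 6 genes. The Rbm3 ratio lost its unadjusted call without ZT12 or ZT20, with limma unadjusted p = 0.105 and 0.0627 (adjusted p = 0.6 and 0.675).

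**Figure D3:**
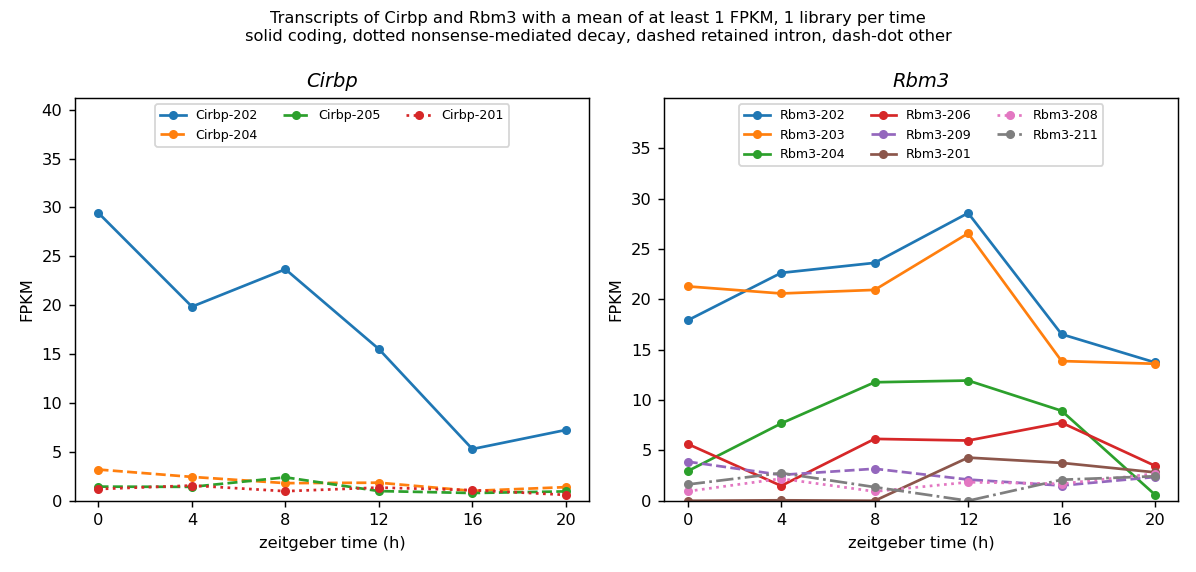
FPKM (y axis) of the transcripts of Cirbp (left) and Rbm3 (right) with a mean of at least 1 FPKM against zeitgeber time in hours (x axis); each point is 1 library and the line style gives the annotated class. Cirbp-202 spans 5.29 to 29.4 FPKM above 3 minor rows, while Rbm3-202 and Rbm3-203 lie together. Rbm3-201 is near 0 up to ZT8 and at 2.82 to 4.29 FPKM from ZT12 on.

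Clk1 held a nearly constant sum but differed in how it was divided. Its single coding row, Clk1-201, which has a coding sequence of 1449 bases, was at 21.1, 19.5, 18.9, 32.7, 32.1 and 27.4 FPKM from ZT0 to ZT20. The 3 libraries from ZT12 on were all above the 3 from ZT0 to ZT8 (amplitude 0.42 ± 0.08 SE, peak ZT15.8; limma unadjusted p = 0.0061, adjusted p = 0.221; exact permutation p = 0.133). With coding transcripts alone standing for the gene, the values fitted are again those of Clk1-201, so this is no second result. Fitted among the coding sums of all genes, they had limma unadjusted p = 0.0016 (adjusted p = 0.0693). The amplitude was the same, and only the moderated variance and the set adjusted over differed. The sum of all rows of Clk1 had limma unadjusted p = 0.578.

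The main retained-intron row, Clk1-204, which keeps introns 3, 4 and 6, was at 19.2, 27.0, 19.3, 17.1, 22.1 and 20.1 FPKM. Its mean was 20.8 FPKM beside 25.3 FPKM for the coding row, and it was above that row only at ZT4 and ZT8. Its highest library was ZT4 and its lowest ZT12 (limma unadjusted p = 0.580, adjusted p = 0.775). Clk1-212, a second row that keeps introns 3 and 4, was at 2.02, 1.49, 0.918, 1.19, 2.78 and 2.79 FPKM. It was highest at ZT16 and ZT20 and lowest at ZT8 (amplitude 0.51 ± 0.10 SE, peak ZT19.7; limma unadjusted p = 0.0086, adjusted p = 0.237; exact permutation p = 0.0833). Although both keep introns 3 and 4, the rows thus had their highest libraries at different times. Without ZT8 Clk1-212 had limma unadjusted p = 0.0528 (adjusted p = 0.358), and with a pseudocount of 0.1 FPKM its amplitude was 0.76 (limma unadjusted p = 0.0084, adjusted p = 0.249).

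The coding share of Clk1 was 36.5, 29.0, 31.6, 50.8, 45.0 and 43.8% from ZT0 to ZT20. The retained-intron share was 49.1, 58.3, 41.2, 37.0, 45.2 and 43.9%, and the share annotated for nonsense-mediated decay was 8.86, 6.90, 19.5, 5.42, 4.08 and 7.09%. The coding share was higher in every library from ZT12 on than in any before, while the retained-intron shares of the earlier and later libraries overlapped. Against the rest of its gene Clk1-201 had an amplitude of 0.58 ± 0.15 (SE; limma unadjusted p = 0.0225, adjusted p = 0.404; exact permutation p = 0.15). The noncoding to coding ratio of Clk1 is the mirror of that ratio, since the gene has 1 coding row (limma unadjusted p = 0.0134, adjusted p = 0.333). Without ZT4 both calls were lost (limma unadjusted p = 0.103 and 0.0731, adjusted p = 0.496 and 0.445).

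**Figure D4:**
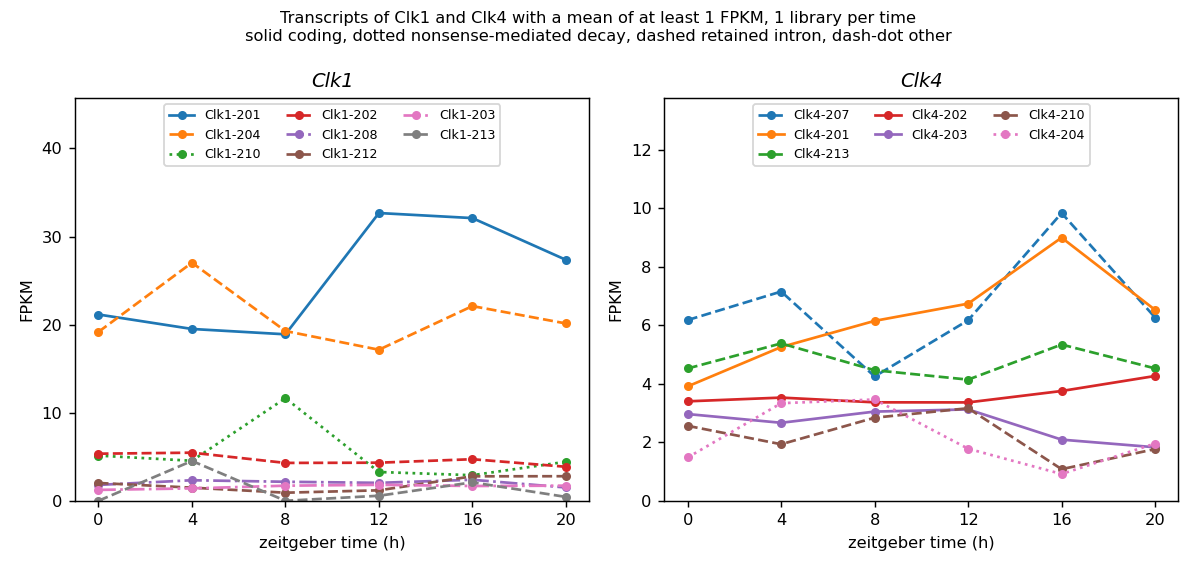
FPKM (y axis) of the transcripts of Clk1 (left) and Clk4 (right) with a mean of at least 1 FPKM against zeitgeber time in hours (x axis); each point is 1 library and the line style gives the annotated class. Clk1-201 is at 18.9 to 21.1 FPKM up to ZT8 and at 27.4 to 32.7 FPKM from ZT12 on, and Clk1-210 has its highest value, 11.6 FPKM, at ZT8.

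Clk1-210, the row that skips exon 4, was at 5.13, 4.54, 11.6, 3.27, 2.90 and 4.43 FPKM. ZT8 stood above all other libraries, and the fit did not pass (limma unadjusted p = 0.235, adjusted p = 0.530). Of the FPKM of Clk1 transcripts that span exon 4, rows that skip it made up 10.8, 8.11, 23.0, 6.33, 4.69 and 8.03%. Rows that splice it as its own exon made up 44.5, 34.1, 37.2, 59.3, 51.8 and 49.6%, and the rest held it inside a longer exon with unspliced intron. The 3 highest skipped shares fell at ZT0, ZT4 and ZT8, but those of ZT4 and ZT20 were nearly level (8.11 and 8.03%). Without ZT8 the fit of Clk1-210 had an amplitude of 0.31 and a peak at ZT1.07 (limma unadjusted p = 0.0398, adjusted p = 0.338). The ZT8 library also stood apart in fat markers, with Adipoq at 0.667 FPKM, Plin1 at 0.548 FPKM and Cidec at 1.88 FPKM, against at most 0.0432, 0.0144 and 0.289 FPKM in the other libraries. The part of fat in the ZT8 values of Clk1-210 was not tested.

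In Clk4 forms with and without exon 4 were both abundant. Clk4-201, its coding row with exon 4, was at 3.91, 5.26, 6.15, 6.74, 9.0 and 6.53 FPKM, higher at each time up to ZT16 (amplitude 0.39 ± 0.10 SE, peak ZT14.3; limma unadjusted p = 0.0321, adjusted p = 0.295; exact permutation p = 0.0667). The unadjusted call was lost without ZT0, ZT8, ZT16 or ZT20, with limma unadjusted p between 0.0580 and 0.139 (adjusted p between 0.365 and 0.612). Clk4-203, annotated as coding but without exon 4, was at 2.96, 2.67, 3.05, 3.12, 2.09 and 1.83 FPKM, lowest at ZT16 and ZT20 (limma unadjusted p = 0.166, adjusted p = 0.468). Clk4-204, annotated for nonsense-mediated decay and also without exon 4, was at 1.48, 3.34, 3.46, 1.78, 0.915 and 1.96 FPKM, highest at ZT4 and ZT8 (limma unadjusted p = 0.0517, adjusted p = 0.331).

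Of the FPKM of Clk4 transcripts that span exon 4, rows that skip it made up 38.2, 40.9, 40.2, 36.5, 19.8 and 25.2%. Rows with exon 4 as its own exon made up 28.7, 29.2, 35.9, 39.3, 51.5 and 44.6%. ZT16 and ZT20 had the 2 lowest skipped shares and the 2 highest included shares. The log2 ratio of skipped to own exon peaked at ZT4.59 in Clk4 with a fitted amplitude of 0.75 (exact permutation p = 0.0833) and at ZT4.84 in Clk1 with one of 0.89 (exact permutation p = 0.233), both 0.35 after adjustment over the 6 ratios. These ratios were chosen after the values were seen, and the alike exons of the genes (93.4% identical) can share reads, so the split between Clk1 and Clk4 over exon 4 is uncertain.

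**Figure D5:**
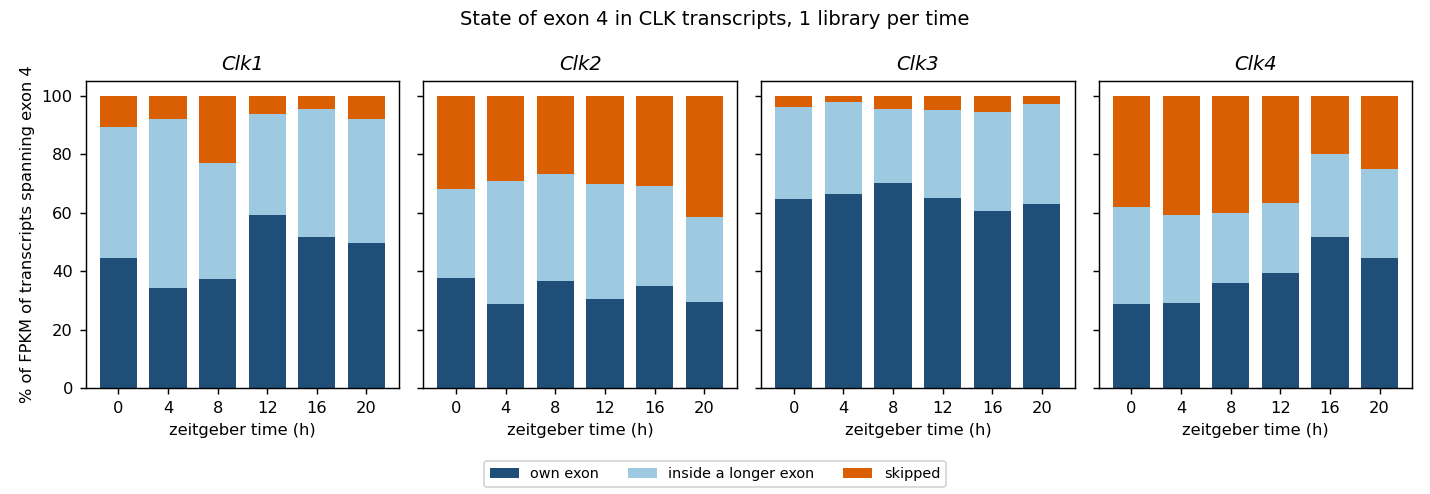
Percent of the FPKM of transcripts that span exon 4 (y axis, stacked to 100) in rows that splice it as its own exon, hold it inside a longer exon with unspliced intron, or skip it, against zeitgeber time in hours (x axis), for Clk1, Clk2, Clk3 and Clk4; each bar is 1 library. The skipped share of Clk4 is 36.5 to 40.9% from ZT0 to ZT12 and 19.8 and 25.2% at ZT16 and ZT20.

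In Clk2 and Clk3 the state of exon 4 followed other orders. Rows without exon 4 made up 31.8, 29.3, 26.7, 30.1, 30.9 and 41.6% of the spanning FPKM in Clk2, highest at ZT20 (exact permutation p = 0.55). In Clk3 they made up 3.99, 2.0, 4.65, 4.91, 5.53 and 2.76%, under 6% in every library (exact permutation p = 0.5). Adjusted over the 6 ratios both were 0.55. The difference between the 4 genes in this ratio was not tested.

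Among the remaining Clk3 rows Clk3-203, which keeps introns 3 and 4 of 2100 and 276 bases, was at 2.50, 1.69, 1.88, 2.60, 3.74 and 3.55 FPKM. ZT16 and ZT20 were the highest libraries and ZT4 the lowest (amplitude 0.43 ± 0.07 SE, peak ZT17.6; limma unadjusted p = 0.0031, adjusted p = 0.192). Its exact permutation p of 0.0167, not adjusted over rows, is the smallest that the design can give. Clk3-203 was the only row of the 36 with a permutation p under 0.05. Only rows of these genes were permuted, so no share over all rows stands beside this count. The main coding row Clk3-205 was at 4.20, 4.91, 5.42, 4.59, 4.46 and 5.06 FPKM, with its highest library at ZT8 (limma unadjusted p = 0.721, adjusted p = 0.855). Against the rest of its gene Clk3-203 had limma unadjusted p = 0.0492 (adjusted p = 0.449; exact permutation p = 0.0167), and this share call was lost with any 1 library left out, with limma unadjusted p between 0.0718 and 0.187 (adjusted p between 0.473 and 0.753).

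The other tested rows of the kinases varied without passing. In Clk4 the retained-intron rows Clk4-207, Clk4-210 and Clk4-213 lay between 4.25 and 9.84, 1.08 and 3.16, and 4.14 and 5.38 FPKM, and the coding row Clk4-202, which starts after exon 4, between 3.36 and 4.27 FPKM. In Clk2 the row without exon 4, Clk2-204, was the highest, at 1.95, 1.71, 1.84, 1.85, 1.81 and 2.67 FPKM, and the coding row Clk2-203 lay between 0.799 and 1.54 FPKM. Clk2-206 and Clk2-207, with retained introns, lay between 0.775 and 1.51 and between 0.910 and 1.17 FPKM. In Clk3 the coding row Clk3-201 lay between 1.52 and 3.02 FPKM and the retained-intron rows Clk3-202 and Clk3-208 between 0.873 and 2.47 and between 1.39 and 2.31 FPKM. In Clk1 the row Clk1-202, of the 3′ part of the gene, lay between 3.86 and 5.46 FPKM, Clk1-203 and Clk1-208 between 1.24 and 2.39 FPKM, and Clk1-213 between 0 and 4.53 FPKM. Noncoding rows made up 62.1 to 71.4% of Clk2, 44.7 to 54.8% of Clk3 and 56.6 to 64.3% of Clk4.

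Isoform shares that reached an unadjusted p under 0.05 besides those of Clk1-201 and Clk3-203 were those of Rbm3-201 (limma unadjusted p = 0.0020), Rbm3-204 (0.0246), Rbm3-209 (0.0376), Cirbp-204 (0.0363) and Clk1-212 (0.0154), with adjusted p between 0.309 and 0.425. The share call of Rbm3-201 held with any 1 library left out, and its amplitude of 1.58 was 3.39 with a pseudocount of 0.1 FPKM. The rows with its distal last exon, summed, were already at 1.62, 2.81 and 1.36 FPKM at ZT0, ZT4 and ZT8. The call of Rbm3-204 was lost without ZT0, ZT8 or ZT20, that of Rbm3-209 without ZT0, ZT12, ZT16 or ZT20, that of Cirbp-204 without ZT8, ZT12, ZT16 or ZT20, and that of Clk1-212 without ZT8 or ZT20. With a pseudocount of 0.1 FPKM those of Rbm3-204, Rbm3-209 and Cirbp-204 were lost too. Without ZT20 the share amplitude of Rbm3-204 was 0.72, against 1.12 with all libraries. Only Clk1-212 and Clk3-203 had an exact permutation p under 0.05 for the share (0.0333 and 0.0167, not adjusted over rows). Here too only rows of these genes were permuted, so the count has no share over all rows beside it. FPKM of isoforms that share most of their exons are estimates that split the same reads, and the part of that splitting in these values was not tested.

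Genes with the closest daily profile were found by the root mean square difference of centred log2(FPKM + 1) over the 6 libraries, among the 7887 genes that averaged 5 FPKM or more. For Cirbp they were Slc6a19, a neutral amino acid transporter gene of the proximal tubule (difference 0.21), Herc3, an E3 ubiquitin ligase gene (0.30), and the cytochrome P450 gene Cyp2j9 (0.30), where the median gene differed by 0.73. Slc6a19 was at 64.2, 61.4, 64.8, 47.5, 26.4 and 27.1 FPKM from ZT0 to ZT20. For Rbm3 they were the imino acid transporter gene Slc6a20a (0.07), the forkhead transcription factor gene Foxo3 (0.08) and Zfp36, which encodes an RNA-binding protein that destabilises messages (0.09), with a median of 0.31. The kinase sums ranged too little across libraries for this ranking.

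The SR proteins are the substrates of the CLK kinases. Of 13 SR protein genes 12 were tested, 6 had an unadjusted p under 0.05 and 0 an adjusted p under 0.05, beside 19.1% and 0.283% of all genes, with a median amplitude of 0.17 beside 0.13 over all genes tested. Those of smallest p were Srsf7 (21.0 to 30.6 FPKM, lowest at ZT8 and highest at ZT16), Srsf6 (36.2 to 50.4 FPKM, ZT8 and ZT20), Srsf5 (98.4 to 150.5 FPKM, ZT16 and ZT4) and Tra2a (11.1 to 27.4 FPKM, ZT0 and ZT16), with limma adjusted p between 0.139 and 0.206. The other kinases that phosphorylate SR proteins or their relatives (SRPK, PRP4 and DYRK) gave 1 unadjusted call among 6 genes tested (median amplitude 0.11). This is near the 19.1% of all genes. The call was Dyrk1b, at 4.59 FPKM at its lowest (ZT16) and 8.76 FPKM at its highest (ZT0; limma adjusted p = 0.218).

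Heat shock response genes, most of which encode chaperones induced by warming, had their highest library at ZT16 in 13 of 15 genes, the library in which Cirbp was lowest. Of all genes tested, 2106 of 12709 (16.6%) had theirs there. The list was chosen with earlier results of these data known, and ZT16 is 1 library, so this count is a description only. Its relation to the level of Cirbp was not tested. Of the 15, 9 had an unadjusted p under 0.05 and 0 an adjusted p under 0.05, beside 19.1% and 0.283% of all genes, with a median amplitude of 0.44 beside 0.13. The median of their centred log2 levels was -0.28, -0.18, -0.25, -0.10, 0.80 and 0.22 from ZT0 to ZT20. Hspa1b, which shares reads with its near copy Hspa1a and is uncertain for that reason, was at 4.30, 4.20, 6.16, 10.5, 35.8 and 7.23 FPKM (limma adjusted p = 0.172). Genes of cold shock domain proteins gave 0 unadjusted calls among 5 tested, beside 19.1% of all genes (median amplitude 0.09 beside 0.13). With 5 genes tested, 0 calls cannot be told apart from that share.

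Of 10 genes of single-RRM and heterogeneous nuclear ribonucleoprotein relatives 4 had an unadjusted p under 0.05 and 0 an adjusted p under 0.05, beside the same 19.1% and 0.283% of all genes, and their median amplitude was 0.17. Hnrnpd, which encodes the AU-rich element binding protein AUF1, was at 55.3, 60.8, 59.96, 50.3, 36.5 and 42.2 FPKM, low at ZT16 and ZT20 as Cirbp was (limma adjusted p = 0.104). The others were Hnrnpa1, Rbmxl1 and Hnrnpc, with highest libraries at ZT8, ZT16 and ZT20 (limma adjusted p between 0.197 and 0.239). As a check on the times, 16 of 18 core clock genes tested had an unadjusted p under 0.05 and 8 an adjusted p under 0.05, at a median amplitude of 1.19, with Nr1d1 highest at ZT4 and Dbp at ZT8.

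The libraries summed to between 534448 and 577493 FPKM, with 22.2 to 28.6% in transcripts of the mitochondrial genome, lowest at ZT20 and highest at ZT4. Kidney epithelium markers were all detected, and their summed level was 40220 to 53647 FPKM. Of the 5 blood markers 5 had an unadjusted and 2 an adjusted p under 0.05, beside 19.1% and 0.283% of all genes. Blood markers summed to 171, 135, 124 and 207 FPKM from ZT0 to ZT12. They were highest at ZT16 and ZT20, where the exon 4 of Clk4 was least skipped too. Of the 5 immune markers 3 were tested and 1 had an unadjusted p under 0.05, beside the same 19.1% of all genes. The 5 summed to between 85.6 and 130.1 FPKM, highest at ZT20. The 5 fat markers summed to between 42.2 and 60.2 FPKM, highest at ZT8; nearly all of it was Fabp4, Ucp1 was listed at 0 in every library, and Adipoq, Plin1 and Cidec were highest at ZT8, as given beside Clk1-210. Adrenal markers summed to at most 0.321 FPKM with Cyp11b1 and Cyp11b2 at 0, and urothelial markers to at most 5.38 FPKM. The part of blood or other cells in the profiles of these genes was not tested. In whole kidneys fewer cells of a type and less RNA per cell cannot be told apart.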

How the data were processed

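Total RNA of 6 kidney libraries, 1 per time, was sequenced after strand-specific library preparation, per the labels' protocols. The deposited table gives FPKM per transcript as the authors computed them; bcl2fastq 2.20 and mm9 are named in the submitters' processing notes, while aligner and estimator are not given in the sources used. Of 127971 transcripts matched by identifier to GENCODE M21 (GRCm38), 98.6% lay inside the table's locus on that build, which was therefore used for classes and coordinates. FPKM carry no read counts, so the depth and the counting error are unknown.

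Members and gene lists were chosen with earlier results of these data known. A cosine and a sine of 24 h were fitted to log2(FPKM + 1) with limma 3.58.1 (R 4.3.3; moderated F test with a mean-variance trend, 3 residual degrees of freedom) over every transcript, and over every summed gene, with a mean of at least 1 FPKM. Isoform shares and noncoding to coding ratios were fitted in the same way. All limma p-values were adjusted by Benjamini-Hochberg over each whole table. With 1 library per time the error is the departure from a cosine, and a p-value measures these libraries only. Single values were also tested by exact permutation of the share of variance explained over 60 circular orders. Genes named beside the members were the 3 of closest profile for each gene ranging over at least 0.5 on the log2 scale, and up to 4 per list by smallest p. Scripts were tested on simulated data. Alternatives changed the pseudocount, filter, scaling, variance model, libraries and transcripts summed.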

Additional observations from a re-analysis of the deposited data

How the results depend on the processing

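With 1 library per time, no result here has replicate support, and unadjusted calls are read only against the share of the whole table that reached them. An amplitude has no sign, so direction was read from the fitted peak, which moved by over 6 h in 14 of the values recomputed. Of these 1 had an unadjusted p under 0.05 as reported, summed Clk3, with its peak at ZT16.3 and at ZT7.83 with the transcript of highest mean only. The other 13 had no call as reported, among them summed Clk2, with its peak at ZT5.44, at ZT20.0 with that setting and at ZT21.7 without ZT8. For single transcripts and ratios, 951 of the values recomputed stayed on their side of the threshold, 50 lost an unadjusted p under 0.05 and 34 gained one. No transcript, isoform share or ratio passed at an adjusted p under 0.05 under any alternative.

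Transcripts at an unadjusted p under 0.05 numbered 6004 of 78040 tested with no filter. With a mean of at least 5 FPKM they numbered 1829 of 9706, and as reported 3277 of 21596. With 1 library left out they numbered 1787 to 3352, of 21552 to 21627 tested. The members among them numbered 5 of 10 tested with a mean of at least 5 FPKM and 1 of 36 by the exact permutation test. With 1 library left out the members numbered 6 to 10, of 35 to 37 tested. Genes at an adjusted p under 0.05 by limma numbered 36 of 12709 as reported, 7 without the trend and 66 with robust moderation. They numbered 0 of 25013 with no filter, 2 of 12195 with the transcript of highest mean only and 129 of 11013 with coding transcripts only. With 1 library left out they numbered 0 to 4, of 12654 to 12720 tested. Genes at an unadjusted p under 0.05 numbered 2428 of 12709 as reported and 1154 to 2468 with 1 library left out. Of the 6 members 0 stood by the permutation test and 1 to 3 with 1 library left out. Isoform shares at an unadjusted p under 0.05 numbered 7094 of 66872 with no filter, 649 of 4590 with a mean of at least 5 FPKM and 1703 of 15323 as reported. With 1 library left out they numbered 1080 to 1722, of 15258 to 15386 tested. The members among them numbered 14 of 61 with no filter, 3 of 10 with a mean of at least 5 FPKM and 2 of 36 by permutation. With 1 library left out the members numbered 3 to 8, of 35 to 37 tested. Ratios numbered 1034 of 9815 with no filter, 132 of 898 with a mean of at least 5 FPKM and 375 of 3359 as reported. With 1 library left out they numbered 249 to 400, of 3315 to 3369 tested. Of the 6 members 4 stood with no filter, 0 by permutation and 1 to 3 with 1 library left out.

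For the summed amplitudes of 0.88 (Cirbp), 0.36 (Rbm3) and 0.19 (Clk3) the exact permutation p was 0.167, 0.0667 and 0.05, in no case below 0.05. With 1 library left out the amplitudes ranged from 0.74 to 1.20 for Cirbp, 0.27 to 0.46 for Rbm3 and 0.15 to 0.23 for Clk3. With the transcript of highest mean only, the amplitude was 0.42 for Clk1, now past an unadjusted p of 0.05, and 0.065 for Clk3, no longer past it. With coding transcripts only it was 0.42 for Clk1 and 0.21 for Clk4, now past it, and 0.077 for Clk3, no longer past it. For Clk1 both of these settings fit the single row Clk1-201, and for Clk3 the transcript of highest mean is Clk3-205, so these values are those of the rows themselves. The cause of the other differences was not tested, beyond the smaller number of rows that a filter leaves. No paired analysis was possible because each time has 1 library and the times share only 1 replicate number, given in accession order.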
